A study of Mus musculus with 15 samples.

Results

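Rps3a1 encodes a protein of the small subunit of the cytosolic ribosome, and Rps3a3 is a retrocopy of it, a gene copy made when a messenger RNA was copied back into DNA and inserted elsewhere in the genome. These 2 genes, of 46517 in the RNA count files, are described here, with the cytosine positions measured within 10 kb of each. They were taken by name. Rps3a3 had been picked out from its RNA counts in knockouts and controls, so differences between those groups at these 2 genes, in RNA or in methylation, are given as descriptions with no test.

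A retrocopy usually arrives without the introns and without the promoter of its parent, and most ribosomal protein retrocopies in mammals are pseudogenes. Their sequence can stay close to that of the parent, so a short read may match several copies. DNMT1 is the enzyme that copies CpG methylation onto the new DNA strand after replication, and many inserted sequences are kept methylated in somatic tissue.

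All 15 samples came from mice of strain C57BL/6. Messenger RNA was sequenced from 3 controls of genotype Dnmt1 f/f and 3 knockouts (KO) of genotype Six2Cre Dnmt1 f/f, all at postnatal day 0 (P0). Reduced representation bisulfite sequencing (RRBS), which measures cytosine methylation in fragments rich in CpG, covered 3 controls and 3 KO of those genotypes at P0 and 3 wild type adults of 6 weeks. Floxed Dnmt1 was thus carried by controls and KO alike, and Six2Cre, which drives recombination in nephron progenitors and leaves other kidney lineages with DNMT1, was carried by the KO alone. The labels give the source as Six2+ cells, but the extraction text names whole kidneys as the source of DNA, and no label says that samples came from separate animals, so p-values here measure the spread between these samples.

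Gene reads per RNA sample ranged from 26773937 to 34102567, and RRBS calls per sample from 18424875 (KO 3) to 88765177. Dnmt1 averaged 175 ± 16.6 CPM in controls against 105 ± 9.57 in KO (CPM is counts per 1000000 reads after scaling; mean ± SD, n = 3 each), a log2 fold change of -0.74 (SE 0.12, edgeR adjusted p 0.00577). Control 3 stood apart in RNA: summed ribosomal protein CPM over 78 genes was 36168 there, against 58549 and 68248 in controls 1 and 2 and 57001 to 66013 in KO. Its summed level of 5 proximal tubule markers was 3416 CPM, against 1343 and 1179 in the other controls. By edgeR's adjusted p under 0.05, which called 6.36% of all genes tested higher and 8.23% lower, all 5 of those markers were lower in KO (245 to 292 CPM summed) and 4 of 5 germ cell markers were higher (98.0 to 151 CPM summed, against 1.16 to 2.23 in controls). The germ cell markers Dazl, Mael and Sohlh2, near 0 in controls, passed edgeR's filter on low counts only through KO reads, so only a rise could be called. Of 5 markers each, 5 podocyte and 4 endothelial markers were lower, and 3 stroma, 2 ureteric and 2 leukocyte markers were higher. Nephron progenitor markers summed to 118 to 251 CPM in controls and 178 to 209 CPM in KO, with Osr1 and Eya1 higher and Cited1 lower. Not all of these calls held when 1 sample was left out: those of Miox and Slc5a2 (proximal tubule), Osr1, Eya1, Ret (ureteric), C1qa and Ptprc (leukocyte) were lost in 3 to 5 of the 6 such fits. In such tissue samples fewer cells of a type and less RNA per cell cannot be told apart, and the part of these shifts in the values below was not tested.

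Rps3a1 (ENSMUSG00000028081.6) lies on the minus strand of chromosome 3, 86137940 to 86142668 in RefSeq's GRCm38.p6 annotation, and is protein coding. Its RefSeq promoter is shown because RRBS read CpGs next to this start, most of them after it. The 250 bases before the start, at chr3:86142669-86142918, minus strand, are printed 5′ to 3′ with CpG sites in capitals.
Rps3a1 promoter: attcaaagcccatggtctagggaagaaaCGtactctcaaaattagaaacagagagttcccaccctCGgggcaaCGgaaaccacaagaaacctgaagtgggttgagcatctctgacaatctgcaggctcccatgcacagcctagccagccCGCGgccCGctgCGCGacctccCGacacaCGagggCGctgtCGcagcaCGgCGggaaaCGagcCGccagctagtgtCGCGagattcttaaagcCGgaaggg

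The printed stretch holds 19 CpG sites, most of them in its last part, next to the start. With 50 more bases after the start the count was 27, against a median of 7 over 27025 promoters of that length, of which 15.4% held at least as many. RRBS gave calls at 21 positions in this 300-base window in at least 1 sample, and all 21 fell on a CpG of the sequence. A position is a cytosine on 1 strand, and neighbours such as 86142623 and 86142624 belong to 1 CpG, so the 21 cover fewer CpG sites than that. In the printed stretch, positions with calls lay only 7 to 37 bases before the start. Of the 21, 2 had at least 10 calls in all 9 samples, both after the start, so the printed stretch was largely unmeasured. Searched on both strands, the window held TCGCGAGA, which starts 26 bases before the transcription start and is present in 1.08% of promoters. It held neither TATAAA (present in 14.2%) nor CACGTG (7.24%). TCGCGAGA was the only motif with a match, so no matches overlapped. The matches describe letters and not bound sites.

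Rps3a3 (ENSMUSG00000059751.7) is annotated as a pseudogene on chromosome 13, 108670580 to 108671443, a span of 864 bases. It lies inside the annotated bounds of Pde4d (chromosome 13, 108654177 to 109955969, plus strand), which encodes a phosphodiesterase that degrades cyclic AMP. Exons were not used here, so whether the overlap is exonic or intronic is not stated. Rps3a2 (ENSMUSG00000062611.4), the other gene in the files named as a copy of the same family, is a pseudogene on chromosome 14, 88122952 to 88123833, with a span of 882 bases.

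Rps3a3 was close to silent in controls and abundant in KO. It had 61, 51 and 41 reads in controls 1 to 3 and 4896, 4882 and 4809 reads in KO 1 to 3. The KO samples lay close together and far above every control. Its mean level was 1.54 ± 0.384 CPM in controls against 165 ± 15.7 CPM in KO (SD, n = 3 each), a ratio of means of 107 and a log2 fold change of 6.75 (SE 0.21). Leaving out control 3 gave 6.55. Across all 18132 genes tested, 14.6% passed an edgeR adjusted p under 0.05 in either direction. No such result is given for these 2 genes, because the contrast chose Rps3a3.

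Among the 1153 genes higher in KO, 193 had a larger log2 fold change than Rps3a3 and 22 had a higher mean level in KO. No gene exceeded it in both. These ranks are a description only, since the same contrast chose Rps3a3. The genes with larger fold changes that came nearest to its KO level were Dazl, an RNA-binding protein of germ cells, at 72.9 ± 20.4 CPM, and Tuba3a, a tubulin of the male germ line, at 58.1 ± 8.49 CPM.

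**Figure D1:**
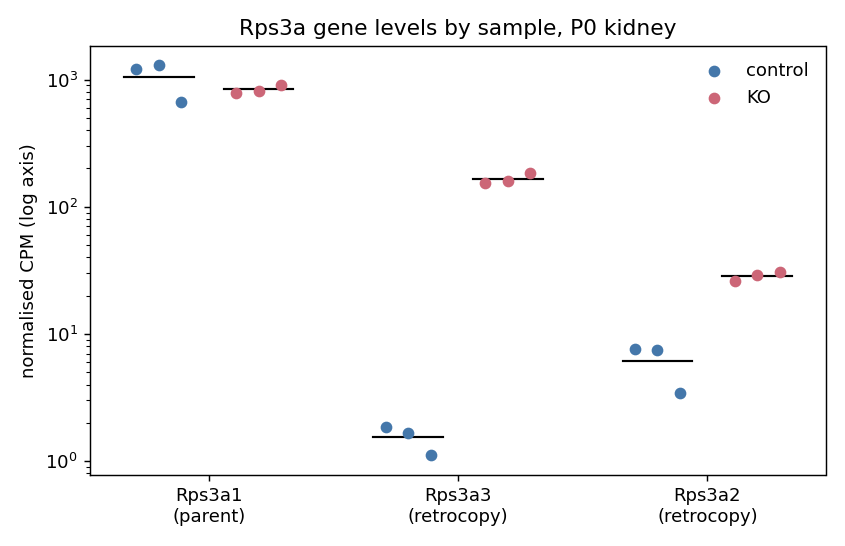
Normalised read counts (CPM) on a log axis for Rps3a1, Rps3a3 and Rps3a2 in each RNA sample (points; controls blue, KO red; lines are group means, n = 3). Rps3a3 moves from 1.11 to 1.86 CPM in controls to 153 to 183 CPM in KO, while the Rps3a1 groups overlap.

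Rps3a1, the parent, was an abundant transcript in both groups. It had 39440, 39922 and 24380 reads in controls and 25316, 24707 and 24067 reads in KO, or 1202, 1292 and 663 CPM and 789, 810.0 and 915 CPM. Controls 1 and 2 lay above all KO samples, but control 3 lay below all of them, so the groups overlapped. Rps3a1 had a log2 fold change of -0.33 (SE 0.25), and of -0.57 (SE 0.11) without control 3.

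Set against each other within a sample, the read numbers of the 2 genes gave a ratio that was close among KO samples. Only relative to its mean did the ratio vary more among controls, where it rests on 41 to 61 Rps3a3 reads. Its SD per 1000 Rps3a1 reads was 0.206 in controls and 3.26 in KO. For every 1000 Rps3a1 reads there were 1.55, 1.28 and 1.68 Rps3a3 reads in controls and 193, 198 and 199.8 in KO. The retrocopy took 0.154%, 0.128% and 0.168% of the reads of the pair in controls. In KO it took 16.2%, 16.5% and 16.7%, with exact (Clopper-Pearson) 95% intervals from 15.8% to 17.1% over the 3 samples, which cover counting error only. The mean share rose by 16.3 percentage points, from 0.150% ± 0.0205 to 16.5% ± 0.228 (SD, n = 3 each). These are shares of reads with a single reported position and not of transcript per length. Control 3, which stood apart in the level of Rps3a1, did not stand apart in this share.

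Rps3a2, the other retrocopy, also rose. It had 248, 231 and 126 reads in controls and 834, 889 and 810 in KO, so that every KO sample lay above every control, as in 16.5% of all genes tested. Its level was 6.15 ± 2.36 CPM and 28.6 ± 2.44 CPM (SD, n = 3 each), a log2 fold change of 2.22 (SE 0.29, edgeR adjusted p 0.002). For every 1000 Rps3a1 reads there were 6.29, 5.79 and 5.17 Rps3a2 reads in controls, and 32.9, 35.98 and 33.7 in KO. In KO its reads were 17.0%, 18.2% and 16.8% of the number of Rps3a3 reads. Per kilobase of annotated span, Rps3a3 was at 1.78 ± 0.444 CPM in controls against 6.97 ± 2.68 for Rps3a2. In KO this order was the other way round, at 191 ± 18.2 and 32.5 ± 2.76 CPM per kilobase (SD, n = 3 each).

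The symbols and annotation name the 3 genes as one family, but their sequences were not compared here, so how reads divide among them is uncertain. Reads with more than 1 alignment were outside the gene counts. Their entries made up 13.97% to 24.6% of all counted entries, assigned or not, in controls and 22.5% to 28.0% in KO, ranges that overlap. Whether such a read was entered once or once per alignment was not checked, so these may not be shares of reads. Whether reads of one copy were placed on another was not tested.

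Because control 3 was low across ribosomal protein genes, Rps3a1 was also expressed as a percent of the summed CPM of 79 such genes, itself included, a measure chosen after seeing the data. That percent was 2.01, 1.86 and 1.80 in controls and 1.35, 1.40 and 1.37 in KO. All KO samples lay below all controls, control 3 included; 12.7% of the 79 genes (10 genes) did so. The mean fell from 1.89% ± 0.109 to 1.37% ± 0.0254 (SD, n = 3 each), a change of -27.3%. Only Rps2, at -41.3% with overlapping groups, had a larger decrease in its mean.

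With Rps3a3 added to the numerator the percent was 2.01, 1.86 and 1.80 in controls and 1.61, 1.68 and 1.64 in KO, a change of the mean of -13.1%. With Rps3a2 added as well, the KO values were 1.66, 1.73 and 1.69 and the change was -11.2%. As this percent, the sum of the 3 copies in KO thus still lay below every control, by less than Rps3a1 alone. In CPM the sum of the 3 was 1059.7 ± 343 for controls against 1032 ± 85.1 for KO (SD, n = 3 each), a difference smaller than the spread between controls. There the groups overlapped, with control 3 (667) below every KO sample (967 to 1128).

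**Figure D2:**
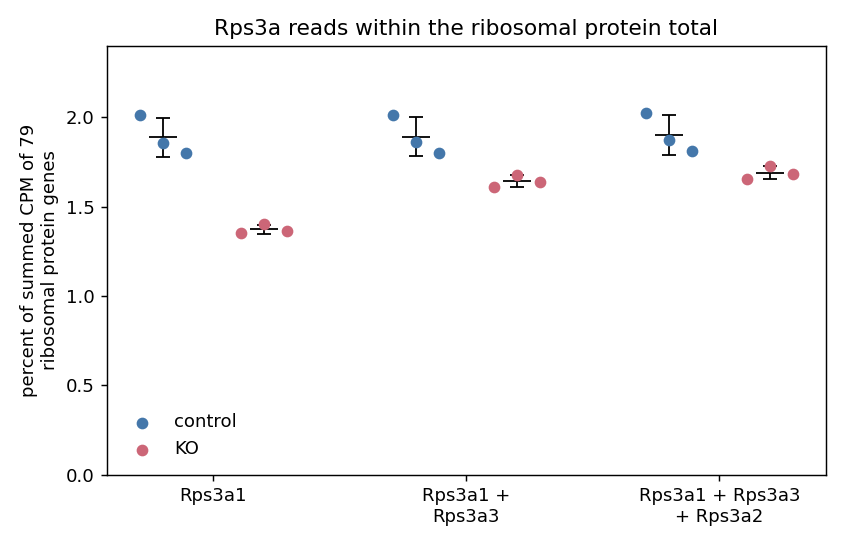
Rps3a1 alone, with Rps3a3, and with Rps3a3 and Rps3a2, as a percent of the summed CPM of 79 cytosolic ribosomal protein genes in each RNA sample (points; bars are mean ± SD, n = 3). KO samples lie below controls in all 3 columns, with the largest gap for Rps3a1 alone.

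The other proteins of the cytosolic ribosome were compared to see whether the family as a whole had moved. Of 31 small subunit genes, 0 were higher and 0 lower by edgeR's adjusted p, and of 47 large subunit genes likewise 0 and 0, against 6.36% of all genes higher and 8.23% lower. At an unadjusted p under 0.05 there was 1 of the 78, and DESeq2 called 0 higher and 1 lower (Rps2, -0.52, adjusted p 0.0431). The median log2 fold change of the 78 was 0.15, against -0.00074 for all genes tested, with 63 positive and 15 negative values, and without control 3 it was -0.07. Fold changes ran from -0.53 (Rps2, SE 0.19, adjusted p 0.105) to 0.57 (Rps14, SE 0.42, adjusted p 0.442). Rps3a1, at -0.33, lay below 77 of the 78. Of 17 ribosome biogenesis genes, 0 passed in either direction by edgeR, also at an unadjusted p under 0.05, with a median of -0.02.

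Of 8 ribosomal protein paralogs tested, which are separate genes for variant ribosomal proteins, 4 were higher in KO and 0 lower, against 6.36% and 8.23% of all genes tested. Rpl39l, a paralog known from testis, had 1, 1 and 0 reads in controls and 220, 184 and 232 in KO (edgeR adjusted p 8.01e-05). Rpl10l, an intronless copy of the X-linked Rpl10 that is used in male meiosis, had 0 reads in the 3 controls and 11, 13 and 13 in KO (adjusted p 0.00454). Both were present in all KO samples and absent or at 1 read in controls. They passed the filter on low counts only through their KO reads, so only a rise could be called for them. The count of 4 of 8 is therefore not a fair comparison with the share of all genes. Rps4l rose from 1093, 1185 and 966 reads to 1936, 2054 and 1689 (log2 fold change 0.97, SE 0.15, adjusted p 0.00407), and Rpl7l1 had a log2 fold change of 0.54 (SE 0.13, adjusted p 0.0264). The call of Rpl7l1 was lost with a block on replicate number and in fits without KO 1, KO 2 or KO 3. Rpl3l, Rpl22l1, Rpl36al and Rps27l, at -0.10 to 0.56, did not pass.

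Other ribosomal protein retrocopies were compared in the same way. They were taken by symbol, those that start with Rps or Rpl and hold -ps, with Rps3a2 added and Rps3a3 left out. Copies named otherwise, such as Rpl10l above, were not counted, so the counts are not a rate for all such retrocopies. The files held 270 of them, of which 65 had 0 reads in all samples and 71 passed the filter on low counts. Of these 71, 2 were higher and 0 lower, against 6.36% and 8.23% of all genes tested, with a median log2 fold change of 0.04. With DESeq2 the same numbers were called, and 3 genes had an unadjusted edgeR p under 0.05. Besides Rps3a2, the gene called was Rpl34-ps1, with 114, 167 and 69 reads in controls and 147, 599 and 661 in KO (log2 fold change 2.20, SE 0.61, adjusted p 0.0473). KO 1 lay within the control range for this gene, and the call was lost with a block on replicate number (edgeR adjusted p 0.0634) and in fits without control 1, control 2, KO 2 or KO 3 (edgeR adjusted p 0.0532 to 0.159). A retrocopy that is silent in controls is tested only when its reads in KO alone pass the filter on low counts, so these counts do not cover all 270.

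**Figure D3:**
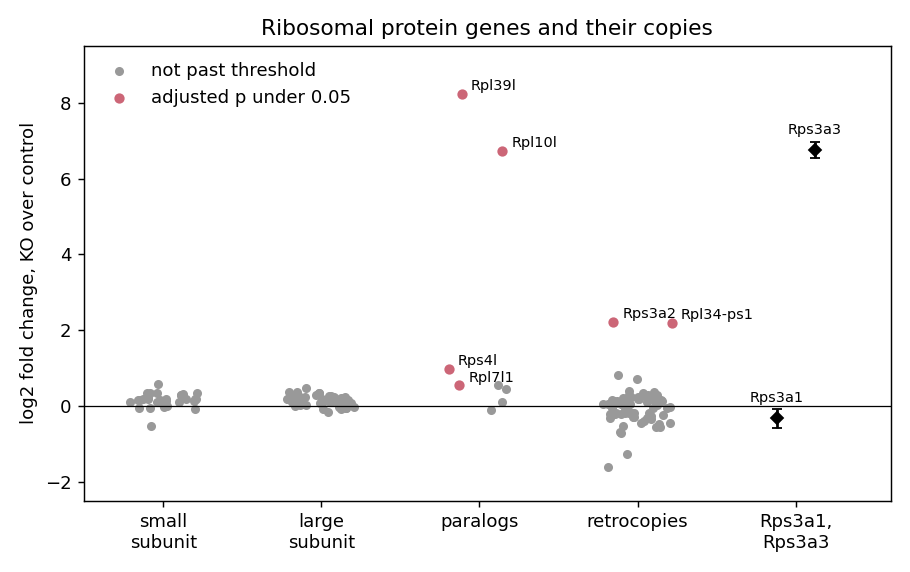
Log2 fold change of KO over control for 31 small subunit genes, 47 large subunit genes, 8 paralogs and 71 tested retrocopies (points; red where the edgeR adjusted p is under 0.05, with names), and for Rps3a1 and Rps3a3 (diamonds, with SE). Subunit genes lie within -0.53 to 0.57, and Rps3a3 stands at 6.75; the value of Rpl10l depends on the small counts edgeR adds, since its controls are at 0.

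Genes with the profile most like that of each member were sought by Pearson's r of log2(CPM + 1) over the 6 RNA samples, across 18131 other genes, as a description. All 6 points share their libraries with the values described above. For Rps3a3, 126 genes had an r of at least 0.99. With controls near 0 and close KO values, such an r largely restates the group difference that chose Rps3a3. It says little about level: Gm7942, among the first 5, averaged 0.597 CPM in KO. The first 5 were Tuba3a (0.999), Gm8711 (0.999), Gm7942 (0.999), Pet2 (0.999) and AF067061 (0.999). Tuba3a had 49.4, 58.7 and 66.3 CPM in KO and at most 0.0609 CPM in controls, and the other 4 were at 0 in controls. Rps3a2 had an r of 0.97 with Rps3a3, and Rps3a1 one of -0.36.

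For Rps3a1, 20 genes reached an r of 0.99. The first 5 were Gm6767 (0.997), Hprt (0.996), Nsmce4a (0.995), Gm13680 (0.995) and Sys1 (0.994). Hprt encodes a purine salvage enzyme and Nsmce4a a subunit of a complex that acts in DNA repair. All 5 shared the low value of control 3, and their log2 fold changes, from -0.38 to -0.15, did not pass. Without control 3, Hprt, Nsmce4a and Sys1 passed, at -0.30, -0.38 and -0.39. The median r with Rps3a1 was 0.71 over the 78 other ribosomal protein genes, against -0.01 over all genes.

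Of the genes beside Rps3a3, only Pde4d, which overlaps it, had enough reads to be tested, and its values were lower in KO. It had 636, 544 and 335 reads in controls and 281, 227 and 208 in KO. Every KO sample lay below every control, as in 17.8% of all genes, but its log2 fold change of -0.93 (SE 0.28) had an edgeR adjusted p of 0.0622. Without control 3 it was -1.20 (adjusted p 0.000642), and with no filter on low counts the adjusted p was 0.0252. DESeq2 gave an adjusted p of 0.0112. The next genes with reads were far away. Gm27572, 171994 bases below, had at most 5 reads in any sample. Rab3c, 1382744 bases above, had 0, 0 and 1 reads in controls and 7, 5 and 5 in KO, too few to be tested.

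Beside Rps3a1, Sh3d19 (log2 fold change 0.39, SE 0.21, adjusted p 0.269) and Lrba (-0.19, SE 0.18, adjusted p 0.556) did not pass. Without control 3 Sh3d19 passed, at 0.68 (edgeR adjusted p 0.00339). Snord73a, a small nucleolar RNA gene within the bounds of Rps3a1, had 11, 17 and 15 reads in controls and 14, 26 and 13 in KO, and did not pass either (adjusted p 0.527). Libraries made from polyadenylated RNA are not suited to measure such RNAs.

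Methylation could be read just after the start of Rps3a1 but hardly at Rps3a3. Within 10 kb of Rps3a1, 125 positions had calls in some sample and 19 had at least 10 calls in all 9 samples. Within 10 kb of Rps3a3, 18 positions had calls in some sample, 12 of them in 1 sample only, and no position had 10 calls in all 9. The same was true of 27.7% of 49943 placed RefSeq genes.

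Just downstream of the start of Rps3a1, methylation was low in all groups. The 14 positions within 1 kb that could be used lay 43 to 565 bases after the start, none in the stretch before it. Over them methylation was 2.33%, 0.598% and 2.43% in controls, 0%, 0.927% and 1.22% in KO, and 0%, 0% and 0.892% in adults. The groups overlapped; every KO sample lay below all controls at 20.1% of gene starts. Their means were 1.79% ± 1.03, 0.714% ± 0.635 and 0.297% ± 0.515 in controls, KO and adults (SD, n = 3 each). The medians over 11752 gene starts were 1.93%, 1.90% and 0.926%. Adult minus control was -1.49 points (two-sided exact permutation p 0.2, adjusted 0.4 over 4 windows). With 3 samples against 3 this test cannot give a p under 0.1.

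At a distance from the gene, methylation was high and lower in KO. The other 5 positions lay 7108 to 7332 bases past the 3′ end of Rps3a1, beside the annotated end of Sh3d19 at 86130526. Their mean was 89.2%, 92.6% and 87.0% in controls, 65.7%, 61.1% and 49.0% in KO, and 98.7%, 93.6% and 91.6% in adults. No KO sample reached the lowest control. Of the 5, those at 86130719 and 86130720 are adjacent bases, as the 2 strands of 1 CpG are, and each was weighed as a position. Nearby positions may also share reads. The group means were 89.6% ± 2.80, 58.6% ± 8.62 and 94.7% ± 3.66, so that KO minus control was -30.9 points. Over 142987 positions of the genome with a control mean of at least 80%, the median was -24.5 points, with quartiles of -31.5 and -17.7, and 69.3% had every KO sample below every control. Adult minus control was 5.08 points (exact permutation p 0.2, adjusted 0.4).

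Of these 5 positions, that at 86130704 on chromosome 3 had 62 of 66, 140 of 148 and 54 of 58 methylated calls in controls and 31 of 72, 24 of 85 and 4 of 27 in KO. Its methylation was 93.9% ± 0.747 and 28.7% ± 14.1, and 94.9% ± 3.39 in adults (SD, n = 3 each). It was singled out after its values were seen. The other 4 had KO means of 62.2% to 69.6%.

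Over all 19 positions the mean was 24.9% ± 0.257 in controls, 15.96% ± 1.88 in KO and 25.1% ± 0.741 in adults (SD, n = 3 each). KO minus control was -8.93 points, against a median of -13.8 points over 36111 genes, of which 75.5% had every KO sample below every control. This mean joins 14 positions near 0 with 5 that are high, and it was -1.07 points within 5 kb, where the 5 are left out, and -34.1 points with at least 20 calls. Adult minus control was 0.241 points (exact permutation p 0.9, adjusted 1). Methylated positions below the 10-call minimum also lay inside the gene, at 86139640 and 86139765. Their control means were 97.2% and 83.6%, and their KO means 33.3% and 72.7%. KO 3 had 2 calls at each, and the groups overlapped at 86139765.

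**Figure D4:**
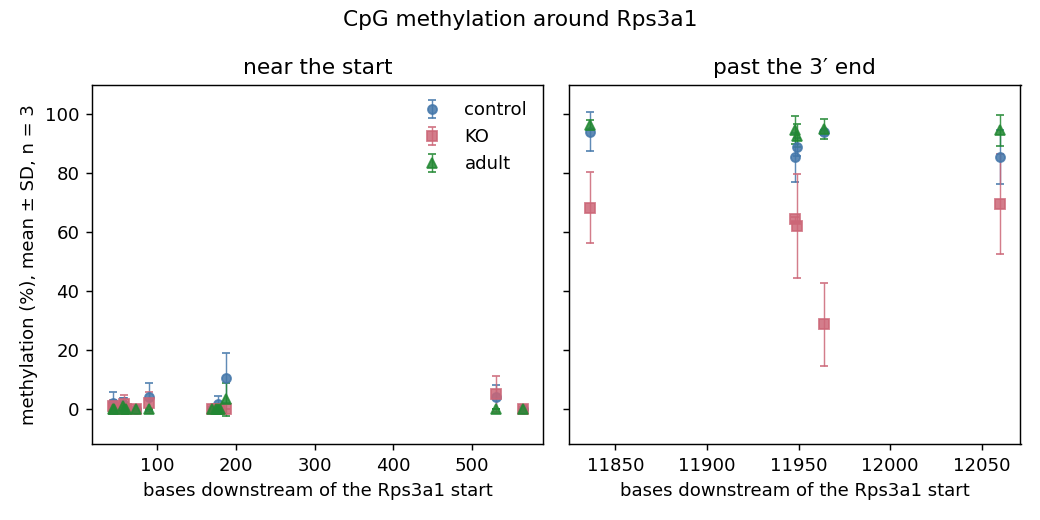
Methylation percent (mean ± SD, n = 3) at the 19 positions that reached 10 calls in each of the 9 samples, by distance downstream of the Rps3a1 start (left, 14 positions within 1 kb; right, 5 positions past the 3′ end). Near the start all groups lie near 0, and at the distant positions KO means lie below those of controls and adults.

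Inside Rps3a3 there was a single position with any call, at 108670593, 13 bases into its span. It had 1 methylated call in control 2 and 5 methylated calls of 5 in KO 3 (exact 95% interval 47.8% to 100%), and no call in the other 7 samples. This is too little to compare groups. The nearest sites that reached 10 calls in each of the 9 samples lay 37472 bases below and 72727 bases above the gene. They had 85.8% ± 6.62 and 89.8% ± 6.24 in controls, 46.2% ± 18.7 and 49.3% ± 18.4 in KO, and 93.9% ± 2.85 and 96.1% ± 1.63 in adults (SD, n = 3 each).

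With the minimum lowered to 3 calls, a choice made after seeing the data, 2 positions remained in the window of Rps3a3, at 108678710 and 108678743, about 7.3 kb above it. The pair may share reads. Their methylated calls were 16 of 16, 30 of 30 and 47 of 63 in controls, 23 of 33, 20 of 38 and 2 of 6 in KO, and 38 of 40, 78 of 92 and 106 of 108 in adults. The mean of the pair was 100%, 100% and 74.5% in controls and 69.7%, 52.6% and 33.3% in KO. Every KO sample lay below every control, with control 3 and KO 1 close to each other and with overlapping counting intervals. At this minimum 77.3% of 40387 genes had such a window.

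The group means at the pair were 91.5% ± 14.7 in controls, 51.9% ± 18.2 in KO and 92.6% ± 6.99 in adults (SD, n = 3 each). KO minus control was -39.6 points, and -30.3 without KO 3, which had 3 calls at each position. The median over 325682 positions with at least 3 calls and a control mean of at least 80% was -24.8 points, with quartiles of -33.8 and -16.4. Adult minus control was 1.14 points (exact permutation p 1, adjusted 1).

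**Figure D5:**
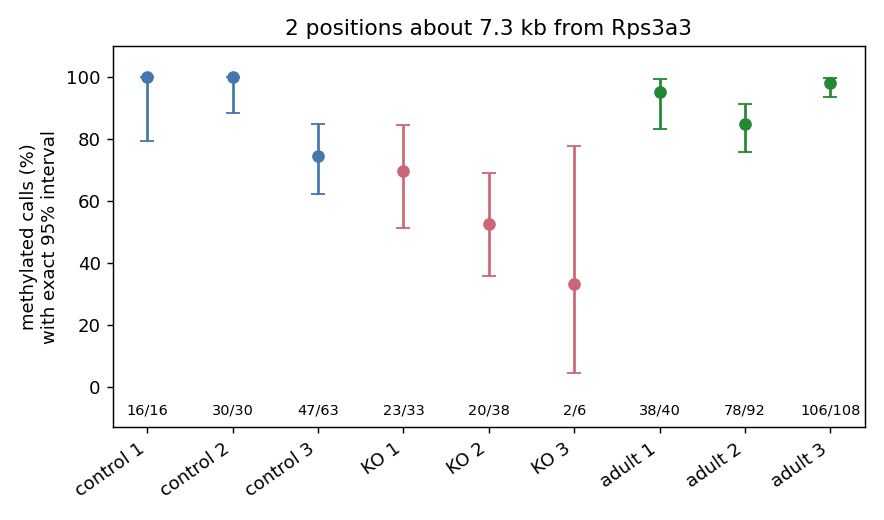
Methylated calls as a percent of all calls at the 2 positions about 7.3 kb from Rps3a3 in each RRBS sample, with exact 95% intervals for counting error and the calls printed below each point. KO samples lie between 33.3% and 69.7%, controls between 74.6% and 100%, and adults between 84.8% and 98.1%.

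No adult RNA sample was analysed here, so the level of either transcript at 6 weeks is not described.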

How the data were processed

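The members and gene lists were chosen with earlier results of these data known. RNA files hold raw read counts per gene, deposited by the authors, with 5 lines of unassigned reads (22.9% to 35.8% of all counted entries) that were left out. STAR 2.4.1d and HTSeq 0.6.1, and Trim Galore and Bismark, are named in the submitters' processing notes with builds mm10 and GRCm38; whether counting used strand is not given in the sources used here. RRBS files hold, per the labels and the values, a methylation percent and the counts of methylated and unmethylated calls per position, as deposited by the authors.

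Counts of 18132 genes that passed edgeR's low-count filter went into edgeR 4.0.16's quasi-likelihood test (R 4.3.3, TMM scaling, Benjamini-Hochberg adjustment over all genes, threshold 0.05). DESeq2 1.42.0 was an alternative. The edgeR script was tested on simulated data. SE is the log2 fold change divided by the root of the F statistic. Of 46517 gene IDs, 46005 matched a symbol. Methylation means weigh each position equally, with at least 10 calls in all 9 samples, and were compared between adults and controls with exact permutation tests (scipy 1.17.1). The strand and start of Rps3a3 are not in the tables used, so its start window was its bounds plus 1 kb, which held no usable position. Genes named are the members and other Rps3a genes, Dnmt1, overlapping and nearest genes, up to 2 largest rises and falls past the threshold in each list, and the 5 most like profiles; further names were chosen after their values were seen.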

Additional observations from a re-analysis of the deposited data

How the results depend on the processing

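Rps3a3 kept its direction under every alternative run, at 6.55 to 6.90 (log2 fold change). Replicate numbers are not stated to pair the RNA samples, and no pairing was seen in the values. The correlations of same-numbered deviations from the group means were -0.24, -0.07 and -0.12, and no sample correlated best with its own number. Such correlations cannot show that the samples were unpaired. The replicate block gave 6.75 for Rps3a3, -0.28 for Rps3a1, 798 genes higher and 1005 lower, 3 paralogs and 1 retrocopy higher. A block on same-numbered RRBS samples leaves the mean differences as they are.

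Across the 6 fits that each left out a sample, Rps3a1 ranged from -0.57 (without control 3) to -0.16, genes higher from 647 (without KO 1) to 2512 (without control 3) and lower from 701 to 2561, against 1153 and 1493. Ribosomal protein genes higher ranged from 0 to 1 (Rps14, without control 2) and lower from 0 to 1 (Rps2, without control 3, and with DESeq2: 1). Retrocopies higher ranged from 1 to 3 and lower from 0 to 4 (without control 3). With no filter on low counts 1 retrocopy was lower. The causes were not tested.

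KO minus control over the Rps3a1 window was -3.74 points with at least 5 calls, -34.1 with at least 20, -22.3 with pooled calls and -1.07 within 5 kb. Adult minus control there was -0.166 with at least 5 calls, 6.40 with at least 20, -6.21 with pooled calls and -1.49 within 5 kb, against 0.241, and -0.185 to 0.489 with a sample left out. These settings change how many of the 5 distant positions enter and their weight. At the pair near Rps3a3 adult minus control ranged from -7.36 to 5.40 with a sample left out, against 1.14, with -0.0333 without adult 1 and -1.61 without adult 3. At least 5 or 20 calls gave no position near Rps3a3, and at least 20 none within 1 kb of the Rps3a1 start. Few calls, above all in KO 3, limit every value near Rps3a3.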
